A study of Arabidopsis thaliana with 21 samples.

Results

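Of the 27206 protein-coding loci on chromosomes 1 to 5 of the TAIR10 annotation of Arabidopsis thaliana, 3148 (11.6%) carried an intron in the 5′ untranslated region (5′ UTR), the stretch of a transcript before its start codon. A locus was taken when its first mRNA had 2 or more separate 5′ UTR lines, 2 to 19 exons and no intron over 1500 bp, and when the locus had fewer than 4 mRNAs. The genes were thus selected on annotated features, and the presence of the intron is a description and no test is given for it. Of the 3514 loci with 2 or more 5′ UTR lines, 201 had 4 or more mRNAs, 138 were over the exon limit and 44 had an intron over 1500 bp, and a locus could fail more than 1 limit. Just inside the length limit were AT2G22620 and ACD6, whose longest introns (1495 and 1469 bp) were coding. Just outside it were ELF4-L3 and VEL2, whose longest introns (1536 and 1560 bp) were UTR introns. With the other limits met, 13 loci had 19 exons against 21 with 20 exons, and 407 loci had 3 mRNAs against 120 with 4 mRNAs.

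The series sampled RNA from leaf and from herbaceous, cambium and wood stages of the stem in soc1-ful plants, mutant in the MADS-box genes SOC1 and FUL. Wild type (WT) plants gave leaf and the herbaceous and cambium stages. Both genotypes are in the Col-0 background and were kept at 20 °C with a 16 h light period. The 21 libraries form 7 groups of 3, which the design text calls biological replicates. The gene annotation is analysed here, and it records gene models and nothing per library, so expression and depth are not analysed here and nothing below compares soc1-ful with WT.

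An intron in the 5′ UTR is removed from the transcript before translation and leaves no trace in the protein. In plants, introns near the start of a gene can raise its expression, an effect known as intron-mediated enhancement, and the 5′ UTR introns of actin, ubiquitin and elongation factor genes are widely used in transgene constructs for this reason. Short sequence motifs that are frequent in such early introns of Arabidopsis have been described, among them TTNGATCTG or TTNGATTTG, where N is any base, and the shorter CGATT. An upstream intron also lets a gene start or splice its transcript in more than 1 way without a change to the protein.

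The following stretches lie inside 5′ UTR introns of known genes and are shown because they carry the longer motif, which is in capitals. All are read 5′ to 3′ on the transcribed strand, a term used throughout for the strand with the sequence of the RNA, not its template. They come from the nuclear sequence of TAIR10.1, whose 5 nuclear chromosomes have the same lengths as those of TAIR10.
SOC1 (minus strand, chr2:18810549-18810577): tttcatttggTTCGATTTGatgtgtttgg
FAD2 (minus strand, chr3:3862738-3862766): acattcaaccTTAGATCTGgtctcgattc
MHX (minus strand, chr2:19527133-19527161): gttataatctTTTGATCTGgttacctctg
ACT2 (plus strand, chr3:6475157-6475185): ttcgtttaatTTGGATCTGtgaacctcca
ACT7 (plus strand, chr5:3052577-3052605): ggttttaatcTTCGATCTGttaggtgttg
AT1G07940 (minus strand, chr1:2465370-2465398): cgtcaccatcTTCGATCTGcttctttctc
SOC1 is the floral integrator mutated in soc1-ful. FAD2 encodes an oleate desaturase of the endoplasmic reticulum, MHX a vacuolar proton exchanger for magnesium and zinc, ACT2 and ACT7 vegetative actins, and AT1G07940 a translation elongation factor 1-alpha. The motif began at base 90 of the intron in SOC1, at base 123 in FAD2, 161 in MHX, 86 in ACT2, 325 in ACT7 and 22 in AT1G07940.

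The 3148 genes held 3486 UTR introns. A single UTR intron was annotated in 2867 genes (91.1%), 243 genes had 2, and 38 had 3 or more. The most, 8, was in AT4G10955, an alpha/beta-hydrolase gene that shares several of them with AT4G10960, where they are mostly coding introns, followed by 6 in APRR8, annotated as a pseudo-response regulator, and 5 in AT2G22720, which encodes an SPT2 chromatin protein. Coding introns, 14578 in all, were present in 2651 of the genes. The other 497 genes had no coding intron. The genes lay on both strands in near equal number, 1576 on the plus strand and 1572 on the minus strand. By chromosome they made up between 10.5% and 12.3% of coding loci.

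UTR introns were longer than coding introns of the same genes. The median UTR intron had 257 bp (quartiles 128 and 422.75 bp) and the median coding intron 96 bp (85 and 136 bp). Over the 5 chromosomes, the median ran from 239 to 281 bp for UTR introns and from 95 to 97 bp for coding introns, so the ranges were far apart. Both classes are limited to 1500 bp by the choice of genes. The shapes differed as well. Among UTR introns 30.1% had up to 150 bp, while 78.0% of coding introns did, most of them near 100 bp. Conversely, 16.8% of UTR introns exceeded 500 bp, against 2.19% of coding introns. The genes are not replicates of a condition and many are related by descent, so the differences between intron classes are given without a p-value.

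**Figure D1:**
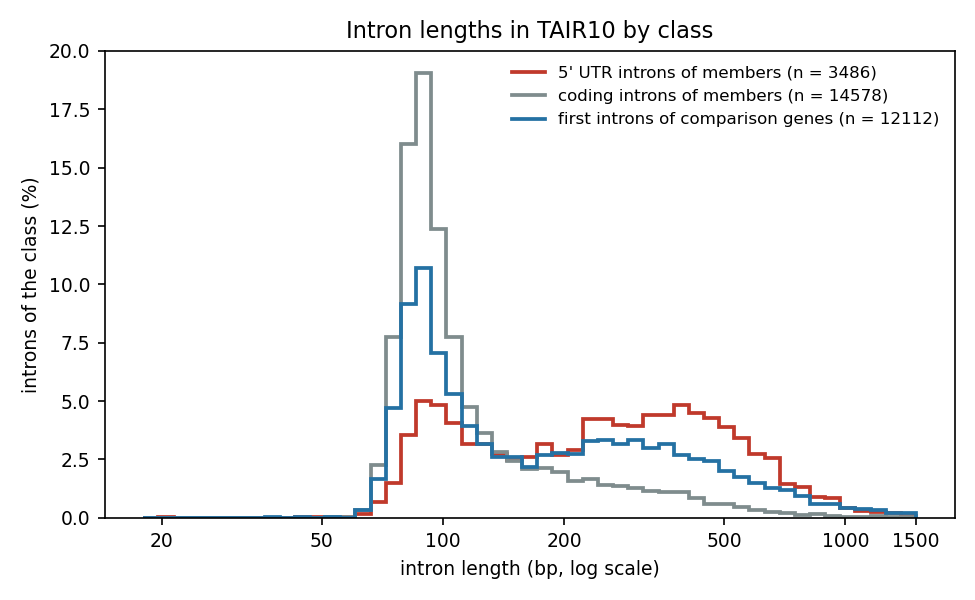
Lengths of 5′ UTR introns (red) and coding introns (grey) of the 3148 genes and of first introns of comparison genes without a UTR intron (blue), on a logarithmic axis in bp, with the percentage of each class per bin on the vertical axis. UTR introns spread over a broad range with 30.1% at up to 150 bp, while coding introns form 1 narrow peak near 100 bp.

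The longest UTR introns belonged to AT3G23480 (1407 bp), annotated as a cyclopropane-fatty-acyl-phospholipid synthase, the lipase gene AT2G03980 (1394 bp), BRX (1388 bp), a regulator of root growth, AT3G61370 (1372 bp) and the receptor kinase gene PR5K (1371 bp). At the other end, PIP5K2, a phosphatidylinositol phosphate kinase gene, had an annotated UTR intron of 20 bp, AT3G54510 one of 45 bp, AT2G07715 one of 50 bp and AT1G54280 one of 52 bp. These 4 were the only UTR introns under 60 bp. AT3G30300, an O-fucosyltransferase gene, followed with 60 bp.

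Within a gene, the longest UTR intron was compared with the median coding intron. The UTR intron was longer in 2171 of 2651 genes (81.9%), shorter in 472 (17.8%) and of equal length in 8. The median ratio was 2.41 (quartiles 1.22 and 4.14), and between 2.26 and 2.62 by chromosome. In 1528 genes (57.6%) the UTR intron was at least 2 times, and in 438 (16.5%) at least 5 times, the median coding intron. The largest ratio was 17.5 in AT3G23480, with 1407 bp against 80.5 bp. It was 16.6 in AT4G24930, a thylakoid lumen protein gene, 15.8 in PR5K, 15.7 in AT2G03980 and 14.8 in SUS4, a sucrose synthase gene. The smallest ratios were 0.103 in HTA8, a histone H2A gene, where the UTR intron had 85 bp and the median coding intron 825 bp, then 0.121 in RABA2c and 0.124 in RABA2D, both small GTPase genes, 0.128 in DSS1(I) and 0.141 in AT3G06310.

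**Figure D2:**
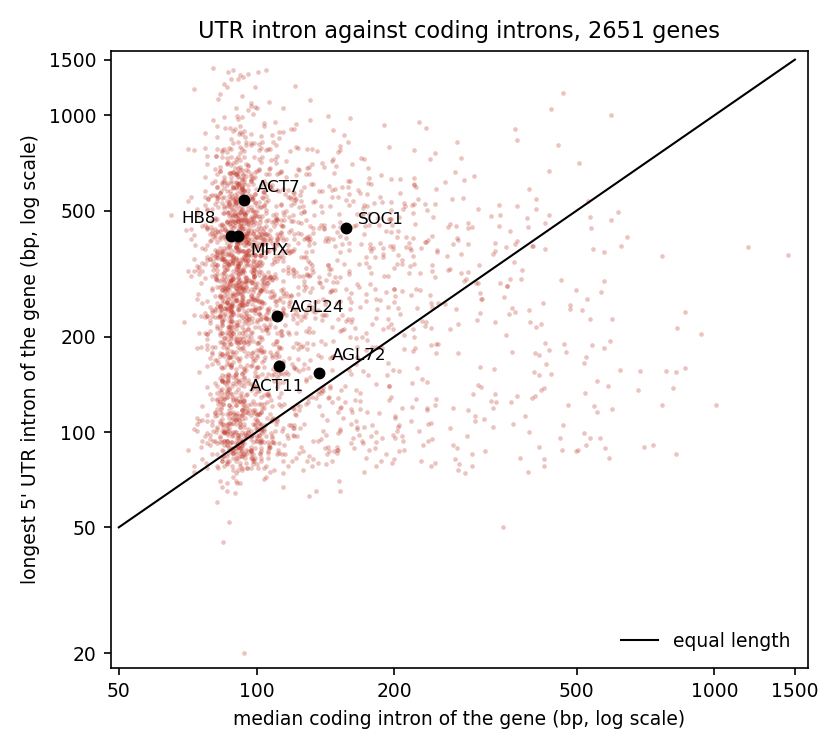
Longest 5′ UTR intron (vertical axis) against the median coding intron (horizontal axis) of each of 2651 genes, both in bp on logarithmic axes, with the line of equal length and 7 listed genes in black. Points above the line, 81.9% of genes, had the longer intron in the UTR.

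Against the longest coding intron of the gene, the median ratio was 1.29, and the UTR intron was longer than every coding intron in 1568 genes (59.1%). A UTR intron always lies near the start of its gene, so a similar measure was taken in 12112 comparison genes. These met the same limits but had a single 5′ UTR line and no intron directly before the start codon. Their first intron was longer than every other in 41.7% of the 9832 with 2 or more introns. The measures differ. Where a gene had several UTR introns the longest was taken, and 3′ UTR introns were set aside. In comparison genes only the first intron counted, and 3′ UTR introns were among the others. Both differences raise the share for UTR introns relative to that for first introns. In genes with exactly 1 UTR intron, it was longer than every coding intron in 58.5%. By these measures the share was higher for UTR introns at each number of introns. It was 74.6% against 57.2% in genes with 2 introns, 56.8% against 38.5% with 5 to 9 and 50.9% against 28.3% with 10 to 18. The first coding intron of the genes with a UTR intron, which follows it, had a median of 103 bp, and the second intron of comparison genes 99 bp.

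First introns of comparison genes had a median of 151 bp (quartiles 92 and 316 bp), between 145 and 155 bp by chromosome, below the UTR introns and above all later introns of the same genes (96 bp). The UTR introns lay closer to the transcript start. Exon 1 had a median of 131 bp in genes with a UTR intron and 319 bp in comparison genes. The choice of genes favours this difference. Exon 1 ends inside the 5′ UTR in the former, and holds the whole 5′ UTR and the start of the coding sequence in the latter. First introns were also compared at matched lengths of exon 1, up to 500 bp, which leaves out genes with a longer exon 1. With an exon 1 of 101 to 150 bp, the median first intron was 285.5 bp in 754 genes with a UTR intron and 125 bp in 1054 comparison genes. With an exon 1 of 201 to 300 bp, the medians were 300.5 bp in 554 genes with a UTR intron and 160 bp in 2771 comparison genes. The quartile ranges overlapped in each class. Introns of 3′ UTRs, also outside coding sequence, had a median of 102 bp (1126 introns in loci within the limits).

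**Figure D3:**
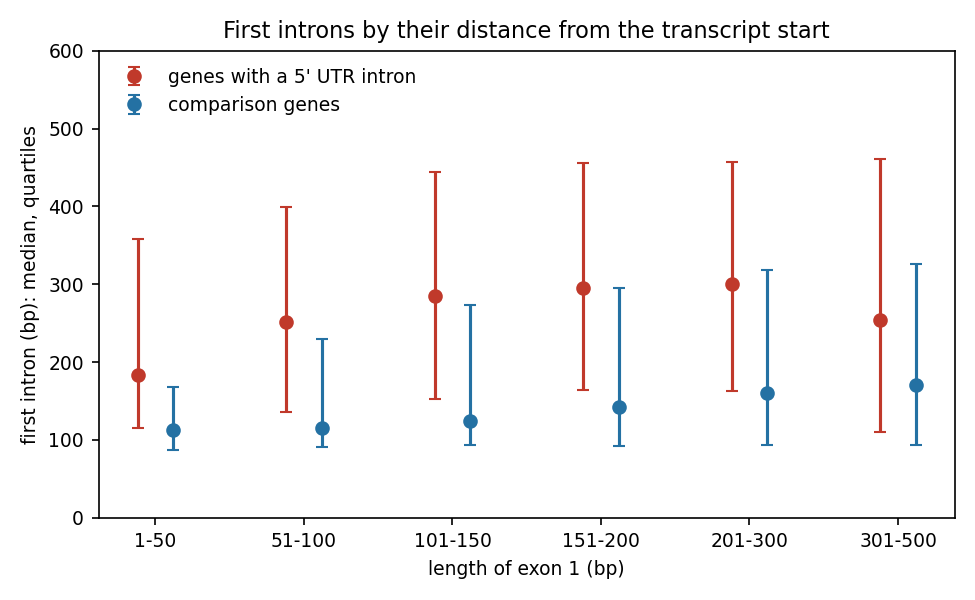
Median first intron in bp, with quartiles as bars, by length of exon 1 up to 500 bp in genes with a 5′ UTR intron (red) and comparison genes (blue). The red median is above the blue one in all 6 classes, with 183 against 113 bp in the shortest class, which holds 58 comparison genes, and the bars overlap.

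In the 281 genes with 2 or more UTR introns, the first had a median of 188 bp and the second 133 bp, both below the 279 bp of a sole UTR intron. The third, in 38 genes, had a median of 115 bp. In genes without a coding intron, the median UTR intron had 295 bp.

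The last UTR intron sat close to the start codon. The spliced transcript had a median of 31 bases between its junction and the start codon (quartiles 14 and 64). In 592 genes (18.8%) the distance was at most 10 bases, in 1154 (36.7%) at most 20 and in 2697 (85.7%) at most 100. A further 84 loci within the limits had an intron that ended exactly at the start codon, which leaves a single 5′ UTR line and thus keeps them out of the rule. These introns directly before the start codon had a median of 259.5 bp, about that of the UTR introns. With the number of mRNAs set aside, all 5 polyubiquitin genes examined had this arrangement in the first mRNA, with introns of 375 bp in UBQ3, 385 bp in UBQ4, 304 bp in UBQ10, 334 bp in UBQ11 and 297 bp in UBQ14. The histone genes HTR4 (463 bp) and HTR5 (409 bp) did too.

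Spliced 5′ UTRs were longer in genes with a UTR intron, with a median of 184 bases against 91 bases in comparison genes. They also held upstream ATG triplets more often, in 1737 genes (55.2%) against 3707 comparison genes (30.6%). Per kilobase of spliced 5′ UTR, 7.89 ATG triplets were found in genes with a UTR intron and 5.24 in comparison genes. The genes for polyamine synthesis and its regulation illustrate this arrangement. S-adenosylmethionine decarboxylase genes are known for translation control by upstream reading frames, and SAC51, a bHLH transcription factor gene, has them as well. SAMDC1 had UTR introns of 397 and 95 bp in a spliced 5′ UTR of 614 bases. SAMDC2 (AT5G15950) had 113 and 256 bp in 468 bases. SAMDC3 (AT3G25570) had 98, 166 and 112 bp in 500 bases, and SAC51 had 324, 98 and 86 bp in 869 bases. None of these 4 loci had a coding intron. The annotation also lists upstream reading frames as coding loci of their own, and such loci meet the rule with the same introns: AT3G02468 shares the 397 bp intron with SAMDC1 and has the 95 bp intron as a coding intron, and AT3G25572 shares the 98 and 166 bp introns with SAMDC3 and has its 112 bp intron as a coding intron. Over all 3148 genes, 96 UTR introns (2.75%) in 61 genes were annotated with the same ends at another coding locus, 27 of them as coding introns there. In 53 cases the intron was counted as a UTR intron of another of the 3148 genes, and in 11 as a coding intron of one.

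Among 111 listed genes, 23 (20.7%) had a UTR intron by the rule. Only 90 of the 111 lay within the limits and had an annotated 5′ UTR. The background was 20.5% of the loci within the limits with a 5′ UTR, to be set against the 23 of 90. It was 11.6% of all nuclear coding loci, to be set against the 23 of 111. Some of these lists were drawn up from genes known for such an intron, so the share says nothing of genes at large. The actin genes all did, 8 of 8. Their UTR introns had 540 bp in ACT7, 443 bp in ACT2 and 460 bp in ACT8, which are the vegetative actins. In the actins of reproductive tissue they had 423 bp in ACT1, 483 bp in ACT3, 211 bp in ACT4, 214 bp in ACT12 and 162 bp in ACT11. The coding introns of the 8 genes ran from 72 to 155 bp, and in each gene the UTR intron was the longest. Its junction lay between 6 and 14 bases before the start codon.

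All 4 genes of elongation factor 1-alpha, which brings aminoacyl-tRNA to the ribosome, also had a UTR intron. It had 645 bp in AT1G07930, 600 bp in AT1G07920, 595 bp in AT1G07940 and 499 bp in AT5G60390. Each gene had 1 coding intron, of 95, 93, 93 and 100 bp in the same order. The first 3 are neighbours on chromosome 1. The last 25 bases of their UTR introns are shown because they are nearly identical in these neighbours and less so in AT5G60390, with the terminal AG of the 3′ splice site in capitals.
AT1G07920: tatttgattgttcttttttttgcAG
AT1G07930: tatttgattgttcttttttttgcAG
AT1G07940: tatttgattgttctttttattgcAG
AT5G60390: tcgatttttgtttttgttttgacAG
AT1G07920 and AT1G07930 were identical at 25 of 25 bases, AT1G07920 and AT1G07940 at 24, and AT1G07920 and AT5G60390 at 16. The whole introns lie at chr1:2454938-2455537 (AT1G07920), chr1:2458346-2458990 (AT1G07930), chr1:2464815-2465409 (AT1G07940) and chr5:24288725-24289223 (AT5G60390). Only AT1G07940 is on the minus strand.

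Of the other genes with a known UTR intron, FAD2 had 1131 bp and no coding intron, with 4 bases between the junction and the start codon. MHX had 416 bp, against coding introns of 70 to 148 bp. SUVH3, a histone methyltransferase gene, had UTR introns of 464 and 111 bp. None of the 5 profilin genes and none of the 3 histone H3.3 genes fell under the rule.

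In the flowering list, 3 of 18 genes (16.7%) had a UTR intron by the rule: SOC1, AGL24 and AGL72, all MADS-box genes. The background to be set against the 3 of 18 was 11.6% of all nuclear coding loci. The 20.5% of loci within the limits with a 5′ UTR has a narrower base, which leaves out several of the 18. AGL42 had 5 mRNAs, FLC, AGL14, AGL19 and AG had an intron over 1500 bp, and AGL71 and LFY had no annotated 5′ UTR. The UTR intron of SOC1 (AT2G45660, listed as AGL20 by RefSeq) lies at chr2:18810217-18810656 on the minus strand. Its 440 bp are 2.81 times the median coding intron of the gene (156.5 bp), but intron 2, in coding sequence, has 1002 bp. Its junction is 23 bases before the start codon. In AGL24, another activator of flowering, the UTR intron had 232 bp and the longest coding intron 714 bp. In AGL72, a relative of SOC1, they had 154 and 897 bp. In these 3 genes the UTR intron was thus not the longest, unlike in the actins. AGL14 (UTR intron of 275 bp) and AG (555 bp) were left out because coding introns of 1940 and 2999 bp exceed the limit. FUL, the other gene mutated in soc1-ful, had a single 5′ UTR line and no UTR intron.

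Of 16 cambium regulators, 1 had a UTR intron: HB8, a class III homeodomain gene of the vascular cambium. Its UTR intron, at chr4:15867860-15868276 on the minus strand, had 417 bp, against 16 coding introns of 76 to 274 bp, a ratio of 4.74 to their median. The related genes ATHB15, PHB, PHV and REV each had 1 5′ UTR line. Among the cambium regulators, CLE41 and CLE44 had no intron, and PXY and STM had no annotated 5′ UTR. In the 3 wood lists, 0 of 14 secondary wall transcription factors, 0 of 12 secondary wall polysaccharide genes and 0 of 19 lignin genes had one. The background was 20.5% of loci within the limits with a 5′ UTR and 11.6% of all nuclear coding loci. Of the 45 genes of the wood lists, 42 had an annotated 5′ UTR and 42 at least 1 intron, but these were not the same genes. NST3, VND6 and PAL3 had no annotated 5′ UTR, and PARVUS, FLA11 and FLA12 had no intron. None of the 45 had a 5′ UTR intron in any mRNA, with the limits of the rule set aside. The lists are small and hold related genes, and they were not tested against the background.

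**Figure D4:**
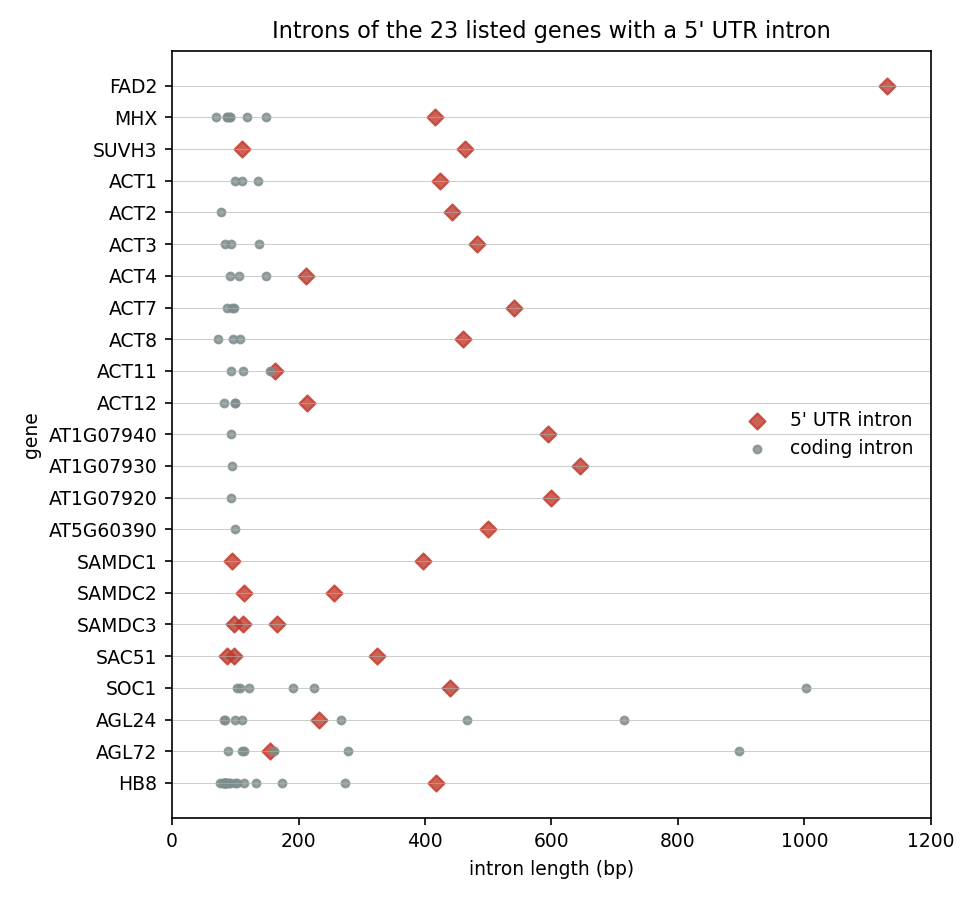
Lengths in bp of the 5′ UTR introns (red diamonds) and coding introns (grey circles) of the 23 listed genes with a UTR intron. In the actins and elongation factor genes the UTR intron is the longest of its gene, and in SOC1, AGL24 and AGL72 a coding intron is longer.

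Gene families were also taken from the product descriptions of RefSeq, for 47 descriptions shared by at least 25 genes with a 5′ UTR within the limits. This grouping was chosen after the values were seen and carries no test. Among all 15344 such genes, 20.5% had a UTR intron by the rule. The share was highest in the F-box/RNI-like superfamily (15 of 30 genes, 50%), the galactose oxidase/kelch repeat superfamily (15 of 31, 48.4%), the RING/U-box superfamily (59 of 131, 45.0%), the RING/FYVE/PHD zinc finger superfamily (13 of 30, 43.3%) and the protein phosphatase 2C family (20 of 47, 42.6%). Families with related names were nearer the background, with 7 of 29 genes in the F-box family (24.1%) and 6 of 26 in the RNI-like superfamily (23.1%). At the low end were 0 of 50 peroxidase superfamily genes, 0 of 31 invertase and pectin methylesterase inhibitor genes, 1 of 39 lipid-transfer and seed albumin genes (2.56%), 3 of 55 GDSL lipase genes (5.45%) and 2 of 35 heavy metal transport genes (5.71%). Class III peroxidases are secreted enzymes of the cell wall, and pectin methylesterase inhibitors also act there. The pectin lyase-like superfamily had 6 of 53 genes (11.3%), and whether the low families share a trait was not tested.

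The splice sites of UTR introns were of the usual kind. GT at the start and AG at the end were found in 3460 of 3486 (99.3%), GC and AG in 24 (0.688%) and another pair in 2. For coding introns of the same genes the share with GT and AG was 98.9%. The ends of a few UTR introns are shown to display the splice sites, in capitals, and the T-rich stretch before the 3′ end.
SOC1 first bases: GTaagatctcttcgt
SOC1 last bases: attttattttttttctgtgtgcaAG
ACT7 first bases: GTgagtctctagatc
ACT7 last bases: cggtttcattttactttttttttAG
FAD2 first bases: GTccgtcgcttctct
FAD2 last bases: ttcttttgcttttggttttctgcAG
These introns lie at chr2:18810217-18810656 (SOC1), chr5:3052263-3052802 (ACT7, plus strand) and chr3:3861748-3862878 (FAD2, minus strand). T made up a median of 43.0% of UTR introns, 40.7% of coding introns of the same genes and 42.1% of first introns of comparison genes. G and C together made up 32.8% of UTR introns, 33.0% of coding introns and 32.0% of first introns of comparison genes.

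The motif TTNGATCTG or TTNGATTTG occurred on the transcribed strand in 480 of 3486 UTR introns (13.8%), in 2.28% of coding introns of the same genes and in 8.71% of first introns of comparison genes. Over all introns of loci within the limits the share was 3.61%. This motif and CGATT were described as frequent in early introns of Arabidopsis, so a higher density in early than in later introns is no independent finding here. Since long introns hold more matches, the density was compared as well. It was 0.504 matches per kb in UTR introns, 0.169 in coding introns of the same genes and 0.412 in first introns of comparison genes. Later introns of comparison genes had 0.180. On the other strand the densities of the 4 classes lay between 0.045 and 0.056 matches per kb, below those of the transcribed strand in every class. Within the first 150 bp, UTR introns (0.512 per kb) and first introns of comparison genes (0.495) were nearly alike, and coding introns had 0.171. Among introns of 200 to 500 bp, the densities on the transcribed strand were 0.569 in UTR introns, 0.162 in coding introns of the same genes and 0.463 in first introns of comparison genes.

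The shorter motif CGATT, which a match of the form TTCGATTTG contains, was found in 37.8% of UTR introns, 6.59% of coding introns of the same genes and 23.0% of first introns of comparison genes, with 10.3% over all introns of loci within the limits. Its density was 1.88 per kb in UTR introns, 0.510 in coding introns and 1.24 in first introns of comparison genes. Within the first 150 bp of the introns the density was 2.66 per kb in UTR introns, 0.517 in coding introns and 1.66 in first introns of comparison genes. On the other strand UTR introns had 0.973 per kb over the whole intron and 1.25 in the first 150 bp. Of the 30 UTR introns of the listed genes, 11 held the longer motif and 12 held CGATT, with 5 matches of CGATT each in ACT8 and AT1G07930. Over all UTR introns the shares were 13.8% for the longer motif and 37.8% for CGATT. Some of the lists were drawn up from genes known for such an intron, and the difference was not tested. A match is a stretch of letters and not a measured site of action.

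**Figure D5:**
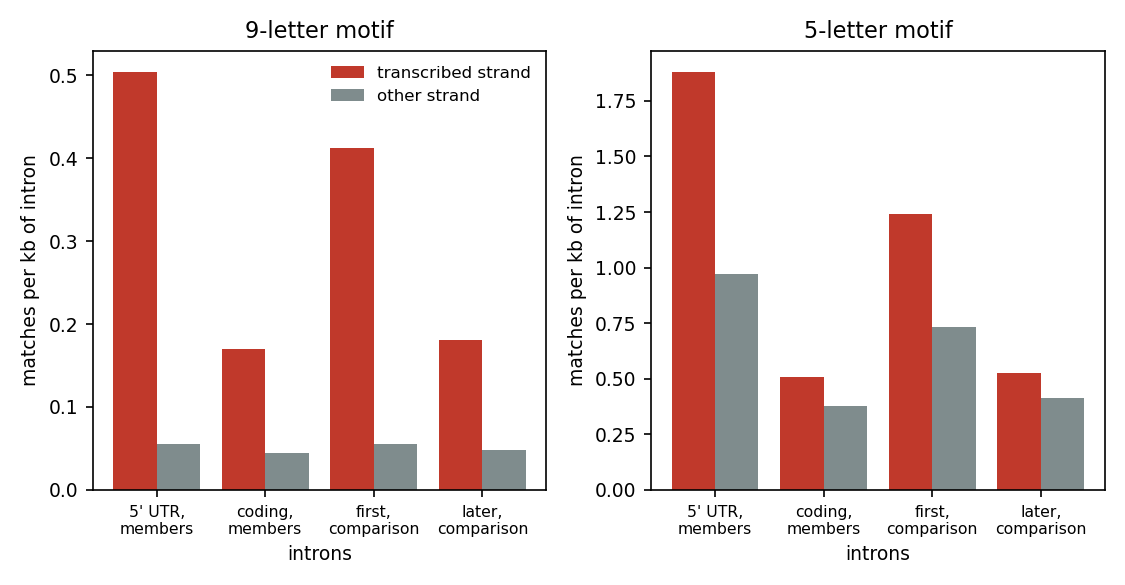
Matches per kb of intron for the longer motif (left) and the shorter motif (right), on the transcribed strand (red) and the other strand (grey), in 4 classes of introns. The transcribed strand here is the one with the sequence of the RNA. On the transcribed strand 5′ UTR introns have the highest density of both motifs, 0.504 and 1.88 per kb over whole introns, followed by first introns of comparison genes, which come close for the longer motif in the first 150 bp (0.512 in UTR introns and 0.495 in first introns). Both motifs were described from early introns, so their excess there is no independent finding.

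A single mRNA was annotated for 1683 of the 3148 genes. Of the 1465 with 2 or 3 mRNAs, every UTR intron of the first mRNA was present with the same ends in every other mRNA in 466 (31.8%). In the other 999 (68.2%), some mRNA had no intron with the same ends for at least 1 of them. An mRNA with a shifted splice site thus counts among these. In 369 of the 999 genes, such an mRNA had no 5′ UTR intron at all. The introns were mostly kept in the later TAIR10.1 annotation. Of 3446 UTR introns at loci found there, 3386 (98.3%) had the same ends and lay in the 5′ UTR of at least 1 mRNA, 23 had the same ends but never lay in a 5′ UTR, and 37 had no counterpart with the same ends. A further 40 UTR introns, not in this share, belonged to loci absent from the nuclear coding genes of that annotation.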

How the data were processed

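The series' gene annotation for TAIR10 (590264 lines) was analysed. Its values are start and end positions in bp counted from 1, of no other unit, deposited by the authors with an empty score column (0 lines with a score). It has 0 columns for a library, so depth is not analysed here. The build TAIR10 and the tools TopHat2 2.0.8 and Trimmomatic 0.0.3 are named, without a role, in the submitters' processing notes. The sources used here do not say how the annotation was made.

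The first mRNA of a locus is the one numbered 1, or else the first by name. An intron was called 5′ UTR when it lay before the start codon and did not touch it, and coding when coding sequence lay on both sides. Medians, counts and shares were computed with Python 3.11.15, numpy 2.4.6 and pandas 2.3.3, and figures drawn with matplotlib 3.10.9. Spread is given over the 5 chromosomes. Sequence, symbols and product descriptions come from RefSeq TAIR10.1. The 5 nuclear chromosome lengths were the same in both builds, and 3141 of the 3148 genes (99.8%) gave an intact reading frame there. Motifs were searched on both strands with overlapping matches counted. All 111 listed genes were found by locus identifier. In 1000 simulated gene models the 5′ UTR, coding and 3′ UTR introns, their lengths and the counts of the longer motif were recovered. Introns that end at the start codon were not simulated. Simulated introns held only A and T besides the planted motifs, so no other match could arise.

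The genes described and the lists were chosen with earlier results of these data known. Named genes are SOC1 and FUL, list genes, the 5 longest and 5 shortest UTR introns, the 3 genes with the most, the 5 largest and 5 smallest ratios, and genes next to the limits of the rule. Length classes at 150 and 500 bp were set after the values were seen.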

Additional observations from a re-analysis of the deposited data

How the results depend on the processing

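Each value was recomputed under other choices, and a move is given where it exceeded 1 SD over the 5 chromosomes, the counting interval for motif densities, or 1.5 times for the number of genes. The values of comparison genes under these choices, the motif density in introns of 200 to 500 bp and the set without shared introns were added after the data were seen. By these measures, 51 of 67 recomputed values did not move. The ratios of single chromosomes were judged against the SD of those same values, and some choices changed few genes. The count is therefore no test of how firm the values are. The number of genes ran from 2778 (TAIR10.1) to 3742 (any mRNA). Without the genes that share a UTR intron with another locus, 3087 remained and the within-gene ratio was 2.41. With UTR introns of any mRNA, the UTR intron was longer than every coding intron in 54.8% of genes with a coding intron. With 2 or more exons and no upper limit, the median coding intron was 97 bp. In the TAIR10.1 annotation the median UTR intron was 237 bp, the within-gene ratio 2.21 and the median first intron of comparison genes 143 bp. In genes with exactly 1 UTR intron, the median UTR intron was 279 bp and the distance to the start codon 29 bases. The ratio was 1.29 against the longest and 2.12 against the first coding intron, and 2.62 on chromosome 1. Means were 308.9 bp for UTR introns, 140.1 bp for coding introns and 240.5 bp for first introns of comparison genes. The longer motif had 0.569 matches per kb in UTR introns of 200 to 500 bp. CGATT had 2.09 there and 2.66 in the first 150 bp. The cause of these moves was not tested. No alternative brought the UTR intron below the coding introns. No paired analysis was possible because the annotation has no columns for libraries to pair by replicate number. Annotated ends of transcripts limit which introns can be placed in a UTR, and 4702 loci within the limits had no annotated 5′ UTR.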
